A study of Mus musculus with 8 samples.

Results

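The genes described here are the SR proteins and the heterogeneous nuclear ribonucleoproteins (hnRNPs), the main families of proteins that choose splice sites in messenger RNA precursors. They were taken as all protein-coding genes whose mouse symbol starts with Srsf or Hnrnp, which gave 31 of 54838 genes in the count files, 11 SR genes and 20 hnRNP genes. RNA was measured in natural killer (NK) cells of the spleen in 2 groups of 4 libraries, teNK and hNK. The teNK cells came from MMTV-PyMT mice, which the series calls tumour-bearing, and the hNK cells from healthy wild-type FVB/n mice. In that model a mammary tumour virus promoter, active mainly in mammary epithelium, drives the polyoma middle T oncogene. Both groups were sorted by flow cytometry as CD45+, CD49b+ and CD3- cells and were kept in cytokine-containing medium for 12 to 16 h before poly(A) RNA was sequenced with a strand-keeping kit. The sources used here do not give the cytokines, the ages of the mice, the strain that carried MMTV-PyMT or the number of animals behind a library. The labels describe a cell isolation for each replicate but do not tie replicates to separate animals. P-values therefore reflect the spread between libraries alone, which may be technical.

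SR proteins bind exons through RNA recognition motifs and use a tail rich in arginine and serine to recruit the splicing machinery, which as a rule favours inclusion of the exon. hnRNPs coat nascent transcripts and often, though not always, keep an exon out of the message. The balance between the families sets many splicing choices when lymphocytes are activated, with the exons of *Ptprc* (CD45) as the textbook case. Members of both families also limit their own amount, through exons or retained introns that send part of their transcripts into nonsense-mediated decay.

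Reads on genes ranged from 13111043 to 16209895 in teNK and from 5202131 to 12419324 in hNK, so the hNK values carry the larger counting error. *Ptprc* measured 5210 to 5467 CPM (the read count scaled to library depth, here with TMM factors) in teNK and 3385 to 3688 CPM in hNK. *Itga2*, which encodes CD49b, measured 619.0 to 640.2 CPM in teNK and 405.6 to 436.3 CPM in hNK, and *Cd3e* was at most 4.34 CPM in any library. The summed level of 12 NK cell markers was 10282 to 11021 CPM in teNK and 5787 to 7010 CPM in hNK, with 10 called higher and 1 lower. Markers of other cells moved with the group as well. The 11 platelet and megakaryocyte markers summed to 366 to 596 CPM in teNK and 98.8 to 138 CPM in hNK, and 9 of 10 tested were called higher. The 9 B cell markers summed to 133 to 162 CPM in teNK and 87.9 to 129 CPM in hNK, and 8 of 9 were called higher and none lower. Most of these sums came from *Ighm*, which averaged 96.5 CPM in teNK and 95.8 CPM in hNK. Other B cell markers differed more, such as *Cr2*, which averaged 14.5 CPM in teNK and 0.124 CPM in hNK, and *Ms4a1*, at 8.02 and 0.419 CPM. The 10 myeloid markers summed to 151 to 174 CPM in teNK and 20.4 to 36.4 CPM in hNK, mostly from *Itgam*, which NK cells also express, and both tested were called higher. *Ly6g* was at 0 in both groups, and *Elane*, *Mpo*, *S100a8* and *S100a9* were at 0 in hNK. The 8 T cell markers summed to 29.2 to 39.4 CPM in teNK and 23.4 to 46.1 CPM in hNK, with 1 of 4 tested called higher and *Cd5* and *Cd8a* at 0 in hNK. The 6 dendritic cell markers summed to 62.7 to 84.9 CPM in teNK and 10.2 to 16.2 CPM in hNK, mostly from *Itgax*, with 1 of 2 tested called higher and *Clec9a* and *Xcr1* at 0 in hNK. Basophil and mast cell markers summed to 2.97 to 4.74 CPM in teNK and 0.166 to 1.26 CPM in hNK, and erythroid markers to 1.85 to 6.86 CPM in teNK and at most 0.361 CPM in hNK. The 6 mammary epithelium markers summed to 0.994 to 2.04 CPM in teNK and 17.0 to 23.3 CPM in hNK, mostly from *Cdh1*, with both tested called lower and *Krt5*, *Krt8* and *Krt14* at 0 in both groups. The RNA polymerase III transcript *Rn7sk*, which has no poly(A) tail, took 0.640% to 0.822% of reads in teNK and 1.29% to 1.77% in hNK. The part of these differences in the results below was not tested. In bulk RNA, fewer cells of a type and less RNA per cell cannot be told apart.

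The splicing factor genes differed by small amounts between the groups. Of the 31 genes, 30 passed the filter on low counts, and their log2 fold changes (teNK over hNK) ran from -0.39 to 0.65. In teNK, 12 rose and 4 fell by edgeR's quasi-likelihood test at an adjusted p under 0.05, which left 14 without a call. The 16 called were 53.3% of the tested members, against 51.9% of all 13903 genes tested, so the share called was near the background. The split by direction was 40.0% higher and 13.3% lower among the members, against 26.4% higher and 25.6% lower among all genes. Only *Srsf5* was called with a change of at least 1.5-fold, which is 3.33% of the members, against 26.8% of all genes tested. The median size of the log2 change, regardless of direction, was 0.19 in the members and 0.32 in all genes. The members drew more reads than most genes, with a median level of 259 CPM against 19.4 CPM over all genes tested, and more reads give a smaller counting error. Among the 5702 tested genes with at least the mean level of the tested member with the fewest reads (29.7 CPM), 58.7% were called, 34.6% higher and 24.1% lower. In that set 18.2% were called at 1.5-fold or more, and the median size was 0.23. Libraries of the groups did not overlap for 16 members, 13 with teNK above and 3 with teNK below hNK, which is 53.3% of those tested. Over all genes the groups did not overlap for 46.5%, 24.1% with teNK above and 22.4% with teNK below.

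**Figure D1:**
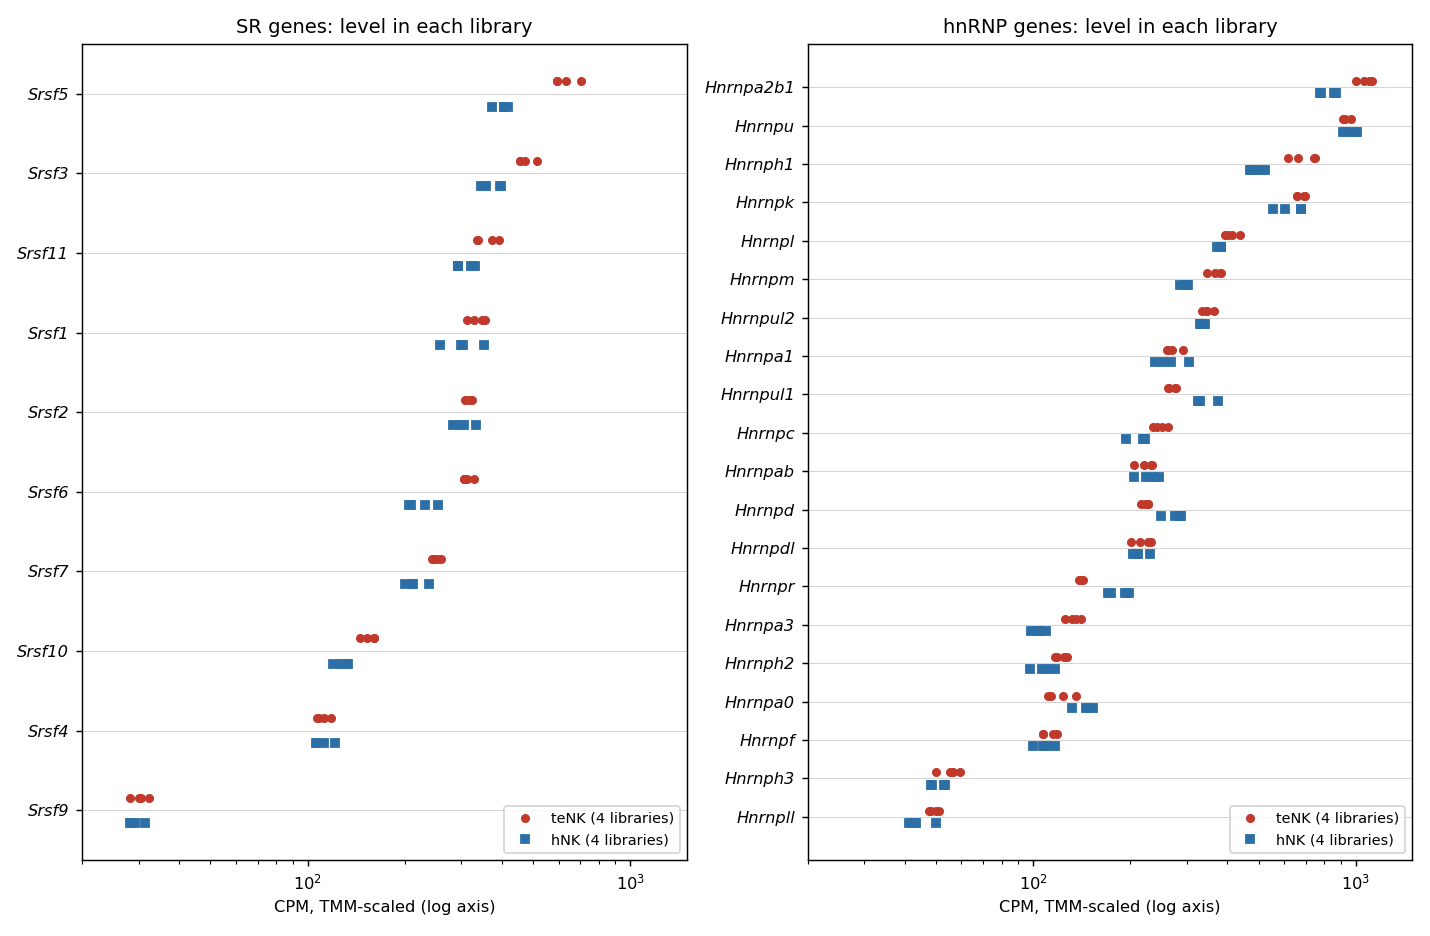
CPM (log axis) of each tested SR gene (left) and hnRNP gene (right) in every library, teNK as circles above and hNK as squares below. The teNK circles of *Srsf5*, from 594 to 704 CPM, lie clear of the hNK squares, whereas those of *Srsf4* and *Hnrnpu* lie over them.

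The scaling bears on changes this small. TMM factors averaged 0.956 in teNK and 1.05 in hNK. With library totals alone, the median log2 fold change of all genes moved from -0.02 to -0.15, the members' median from 0.12 to -0.01, and the called split of all genes from 50.7% to 34.6% higher. In that setting 7 members were called higher and 5 lower, beside 2709 higher and 5114 lower of all 13903 genes tested. Each of the 16 called members kept its sign in all 17 alternative settings that gave a value for it. In 5 of the 12 that rose the call was lost in at least 1 of these 17, and in none of the 4 that fell. A further test, against a change of 1.2-fold rather than against no change (edgeR's glmTreat), called 5 of the 12 higher and 1 of the 4, *Hnrnpr*, lower. With library totals alone *Srsf7*, *Srsf10* (adjusted p = 0.0510), *Srsf11*, *Hnrnpc* and *Hnrnph2* were not called, and *Hnrnpu* was called lower (log2 fold change -0.17, adjusted p = 0.0319). Calls below are edgeR's with TMM factors unless another setting is named, and gene positions are on GRCm38.

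**Figure D2:**
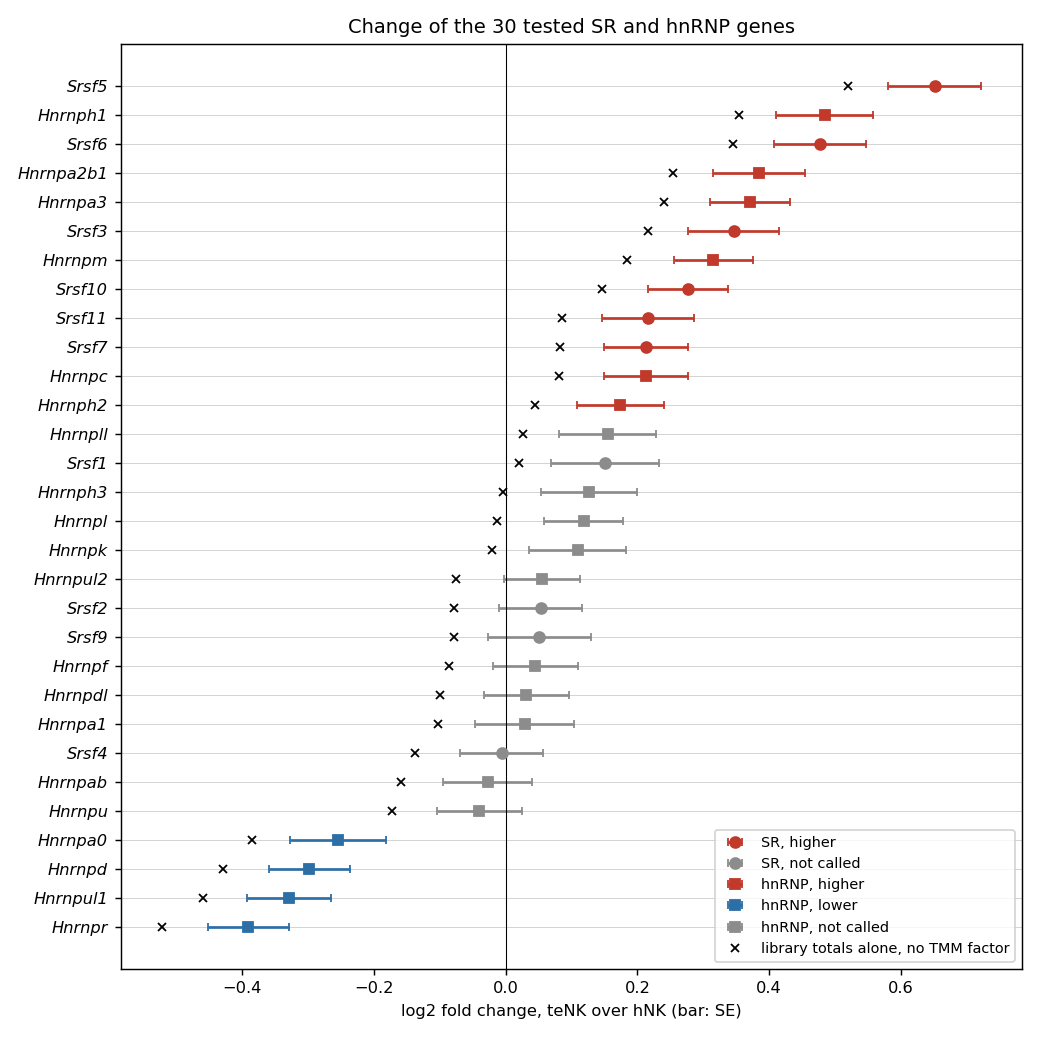
Log2 fold change (teNK over hNK) of the 30 tested members, with the standard error as a bar. Circles are SR genes and squares hnRNP genes, red is called higher, blue called lower and grey not called, and crosses give the value with library totals alone. The range is -0.39 for *Hnrnpr* to 0.65 for *Srsf5*, and all crosses lie left of their symbols.

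Among the SR genes, 6 of 10 tested rose in teNK (60.0%, against 26.4% of all genes) and none fell, and 3 rose with library totals alone. At an unadjusted p under 0.05 none was lower either, and DESeq2 and limma-voom also called none lower. The median log2 fold change was 0.21, against -0.02 over all genes tested. Among the 5702 tested genes with at least 29.7 CPM, 34.6% rose and the median was 0.04. The 6 SR genes that rose were *Srsf5*, *Srsf6*, *Srsf3*, *Srsf10*, *Srsf11* and *Srsf7*.

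*Srsf5* (ENSMUSG00000021134, chromosome 12, 80945504 to 80950507), a classical SR protein that binds purine-rich exonic enhancers, measured 704, 632, 594 and 594 CPM in teNK replicates 1 to 4, against 419, 374, 408 and 406.5 CPM in hNK replicates 1 to 4. Every teNK library was far above every hNK library. It rose 1.57-fold, with 0.65 ± 0.07 (SE) on the log2 scale and adjusted p = 9.45e-07.

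*Srsf6* (ENSMUSG00000016921, chromosome 2, 162931528 to 162937121), a close relative of *Srsf5*, measured 327, 311.5, 306 and 306 CPM in teNK and 210, 207, 253 and 231 CPM in hNK. The groups were apart, and the teNK libraries lay closer together than the hNK ones. The log2 fold change was 0.48 ± 0.07 (adjusted p = 2.52e-05).

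*Srsf3* (ENSMUSG00000071172, chromosome 17, 29032628 to 29043373), the smallest of the classical SR proteins and also an adaptor for mRNA export, measured 514, 474, 457 and 455 CPM in teNK and 346, 396, 397 and 357 CPM in hNK. It rose by 0.35 ± 0.07 on the log2 scale (adjusted p = 0.000480). *Srsf10* (ENSMUSG00000028676, chromosome 4, 135855747 to 135869908) encodes an atypical SR protein that acts as a splicing repressor once it loses its phosphates. It measured 153, 161, 161 and 145 CPM in teNK and 120, 131.5, 134 and 127 CPM in hNK, a log2 fold change of 0.28 ± 0.06 (adjusted p = 0.00115). For both genes the lowest teNK library was above the highest hNK library.

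*Srsf7* and *Srsf11* rose less. *Srsf7*, an export adaptor like *Srsf3*, measured 259, 247, 252 and 242 CPM in teNK and 201, 211.5, 239 and 213 CPM in hNK, a log2 fold change of 0.21 ± 0.06 (adjusted p = 0.0101). The gap between the groups was narrow, between 242 CPM in the lowest teNK library and 239 CPM in the highest hNK library. *Srsf11*, which is counted with the SR-related factors by some, averaged 360 ± 26.9 CPM in teNK and 310 ± 18.9 CPM in hNK (SD, n = 4 each), which gave 0.22 on the log2 scale (adjusted p = 0.0154). Its call was lost without hNK replicate 2 (adjusted p = 0.0531) and without teNK replicate 2 (adjusted p = 0.0516).

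The 4 SR genes not called were *Srsf1*, *Srsf2*, *Srsf4* and *Srsf9*. *Srsf2* (ENSMUSG00000034120, chromosome 11, 116849901 to 116853094), known as a marker of nuclear speckles, had the smallest standard error of these. It measured 320, 308, 311 and 323 CPM in teNK and 296, 282, 332 and 307 CPM in hNK, and the hNK range enclosed the teNK range. Its log2 fold change was 0.05 with a 95% interval of -0.07 to 0.18 (adjusted p = 0.504). *Srsf4*, the other close relative of *Srsf5* and *Srsf6*, averaged 112 ± 5.25 CPM in teNK and 112 ± 6.92 CPM in hNK, with an interval of -0.13 to 0.12. *Srsf1*, the founding SR protein, averaged 336 ± 18.7 CPM in teNK and 303 ± 39.1 CPM in hNK (adjusted p = 0.138). Without hNK replicate 3, the highest of its group at 352 CPM, it was called higher (log2 fold change 0.23, adjusted p = 0.0194). Without hNK replicate 1, the lowest at 257 CPM, the log2 fold change was 0.08 (adjusted p = 0.384). *Srsf9* had the lowest level of the SR genes tested, at 30.2 ± 1.69 CPM in teNK and 29.2 ± 1.51 CPM in hNK.

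*Srsf12*, whose human protein is a splicing repressor related to *Srsf10*, did not pass the filter. It had 5, 12, 2 and 5 reads in teNK replicates 1 to 4, against 0, 1, 1 and 1 in hNK. The pooled 24 and 3 reads, scaled for depth, gave a ratio of 5.13 with an exact 95% interval of 1.56 to 26.6, which covers counting error only. Without a filter it was called higher (adjusted p = 0.0287).

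Among the hnRNP genes, 6 of 20 rose and 4 fell, against 26.4% higher and 25.6% lower of all genes, and 10 were not called. The 10 called of 20 are near the 51.9% called over all genes. The median log2 fold change was 0.08. The 6 that rose were *Hnrnph1*, *Hnrnpa2b1*, *Hnrnpa3*, *Hnrnpm*, *Hnrnpc* and *Hnrnph2*, and the 4 that fell were *Hnrnpr*, *Hnrnpul1*, *Hnrnpd* and *Hnrnpa0*.

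*Hnrnph1* (ENSMUSG00000007850, chromosome 11, 50376990 to 50386528), which binds runs of guanine, measured 741, 746, 661.5 and 615 CPM in teNK and 478, 503.5, 523 and 471 CPM in hNK. The groups did not overlap, and the log2 fold change was 0.48 ± 0.07 (adjusted p = 3.92e-05), close to that of *Srsf6*. *Hnrnpa2b1* (ENSMUSG00000004980, chromosome 6, 51460932 to 51469894), which binds UAG-type motifs and takes part in RNA transport, measured 1059, 1126, 1099 and 1001 CPM in teNK and 782, 774, 870 and 858 CPM in hNK. No library of hNK reached the lowest of teNK, and the log2 fold change was 0.38 ± 0.07 (adjusted p = 0.000214). *Hnrnpa3*, a relative of *Hnrnpa2b1*, measured 141, 136, 132 and 126 CPM in teNK and 98.5, 103, 104 and 109 CPM in hNK, a log2 fold change of 0.37 ± 0.06 (adjusted p = 8.35e-05). It shares 57 exonic bases with a miRNA gene on its strand. All 3 were apart between the groups.

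*Hnrnpm*, a component of the nuclear matrix that binds GU-rich sites, measured 380, 368, 381 and 346 CPM in teNK and 285, 298, 301 and 303 CPM in hNK, a log2 fold change of 0.32 ± 0.06 (adjusted p = 0.000306). It shares 1169 exonic bases with *March2* on the same strand, and reads there may have been set aside as ambiguous. *Hnrnpc*, which binds runs of uridine and keeps transposon-derived exons out of messages, averaged 247 ± 11.7 CPM in teNK and 214 ± 13.05 CPM in hNK (adjusted p = 0.0105). *Hnrnph2* averaged 122 ± 5.05 CPM in teNK and 108 ± 8.16 CPM in hNK, and its call was the weakest (log2 fold change 0.17, adjusted p = 0.0361). It was lost without hNK replicate 1 (adjusted p = 0.105), hNK replicate 4 (0.0703), teNK replicate 1 (0.0788) or teNK replicate 3 (0.0966), and with the replicate number as a block (0.0501). It was also lost with upper-quartile factors (0.0715), with no filter (0.0522), without hNK replicates 3 and 4 together (0.0900) and with library totals alone. These are 9 of the 17 alternative settings.

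The 4 hnRNP genes that fell did so by 1.19-fold to 1.31-fold. *Hnrnpr* (ENSMUSG00000066037, chromosome 4, 136310942 to 136359447), a relative of the mRNA-binding protein SYNCRIP, measured 139, 139, 143 and 139 CPM in teNK and 171, 175, 192.5 and 199 CPM in hNK. The teNK libraries nearly coincided, and all lay under the hNK libraries. The log2 fold change was -0.39 ± 0.06 (adjusted p = 5.86e-05). *Hnrnpul1* (ENSMUSG00000040725, chromosome 7, 25721165 to 25754757), a relative of the scaffold factor hnRNP U, measured 264.5, 261.5, 275 and 278 CPM in teNK and 324.5, 375, 328 and 326 CPM in hNK, a log2 fold change of -0.33 ± 0.06 (adjusted p = 0.000407).

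*Hnrnpd* (ENSMUSG00000000568, chromosome 5, 99955935 to 99978938), also known as AUF1, binds AU-rich elements and directs the decay of cytokine messages. It measured 222, 216, 228 and 227 CPM in teNK and 249, 287, 276 and 286 CPM in hNK, apart between the groups, with a log2 fold change of -0.30 ± 0.06 (adjusted p = 0.000715). *Hnrnpa0*, which also binds AU-rich elements, measured 114, 111, 124 and 136 CPM in teNK and 132, 153, 145.5 and 149 CPM in hNK. The ranges overlapped, since teNK replicate 4 was above hNK replicate 1, and the log2 fold change was -0.25 ± 0.07 (adjusted p = 0.00772). *Hnrnpd* and *Hnrnpr* share exonic bases with genes on the opposite strand, and the strand setting of the counting was not given in the sources used here. Of the 31 members, 14 share exonic bases with another gene, 3 of them on the same strand (*Hnrnpa3*, *Hnrnpm* and *Hnrnpul2*). *Hnrnpul2* shares 360 bases. *Srsf4* shares 1532 of its 3561 exonic bases with a gene on the opposite strand, and *Srsf2* and *Hnrnpf* also share bases that way. The effect on their counts and on the ratios below was not tested.

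Of the 10 hnRNP genes not called, *Hnrnpul2* had the smallest standard error. It measured 344, 347, 364.5 and 333.5 CPM in teNK and 329, 342, 333 and 332 CPM in hNK, with a log2 fold change of 0.06 and an interval of -0.06 to 0.17 (adjusted p = 0.447). *Hnrnpu*, which scaffolds chromatin-bound RNA, averaged 933 ± 22.5 CPM in teNK and 960 ± 45.3 CPM in hNK, with an interval of -0.17 to 0.09. *Hnrnpk*, which binds cytosine-rich RNA, measured 694, 658, 696.5 and 659 CPM in teNK and 553, 678, 677 and 602 CPM in hNK, with a log2 fold change of 0.11 (adjusted p = 0.228). *Hnrnpl*, which binds CA repeats and silences *Ptprc* exons, measured 393 to 438 CPM in teNK and 373 to 383 CPM in hNK without overlap, but missed the threshold (log2 fold change 0.12, adjusted p = 0.108). DESeq2 called it higher (adjusted p = 0.0427). *Hnrnpll*, the factor known to silence *Ptprc* exons in activated lymphocytes, averaged 49.2 ± 1.58 CPM in teNK and 44.3 ± 3.98 CPM in hNK, a log2 fold change of 0.15 (adjusted p = 0.0881). It was called higher without hNK replicate 3, the highest of its group at 50.1 CPM (adjusted p = 0.0230). With library totals alone its log2 fold change was 0.03 (adjusted p = 0.782). The remaining 5, *Hnrnpa1*, *Hnrnpab*, *Hnrnpdl*, *Hnrnpf* and *Hnrnph3*, had log2 fold changes between -0.03 and 0.13. *Hnrnpa1* has processed copies in the genome, and how reads with several alignments were treated cannot be seen in the files. The 2 pseudogene rows with the family name, *Hnrnpa1l2-ps2* and *Hnrnpa1l2-ps*, held 22 and 4 reads in teNK and 7 and 2 reads in hNK.

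Summed over its 11 genes, the SR family took 3106, 2992, 2911 and 2899 CPM in teNK replicates 1 to 4 and 2321, 2330, 2586 and 2378 CPM in hNK. The 20 hnRNP genes together took 6828, 6708, 6757 and 6452 CPM in teNK and 5843, 6209, 6408 and 6307 CPM in hNK. Both sums were higher in every teNK library, by a wide margin for the SR genes and a narrow one for the hnRNP genes. The ratio of SR reads to hnRNP reads needs no scaling factor. It was 0.455, 0.446, 0.431 and 0.449 in teNK and 0.397, 0.375, 0.404 and 0.377 in hNK, so the lowest teNK library was above the highest hNK library. The SR sum averaged 2977 CPM in teNK and 2404 CPM in hNK. *Srsf5* alone averaged 631 CPM in teNK and 402 CPM in hNK, a large part of that difference. The ratio without *Srsf5* was not computed. As a share of reads on genes without scaling, the SR genes took 0.274% to 0.295% in teNK and 0.236% to 0.270% in hNK. The hnRNP genes took 0.610% to 0.652% in teNK and 0.617% to 0.671% in hNK, ranges that overlapped.

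**Figure D3:**
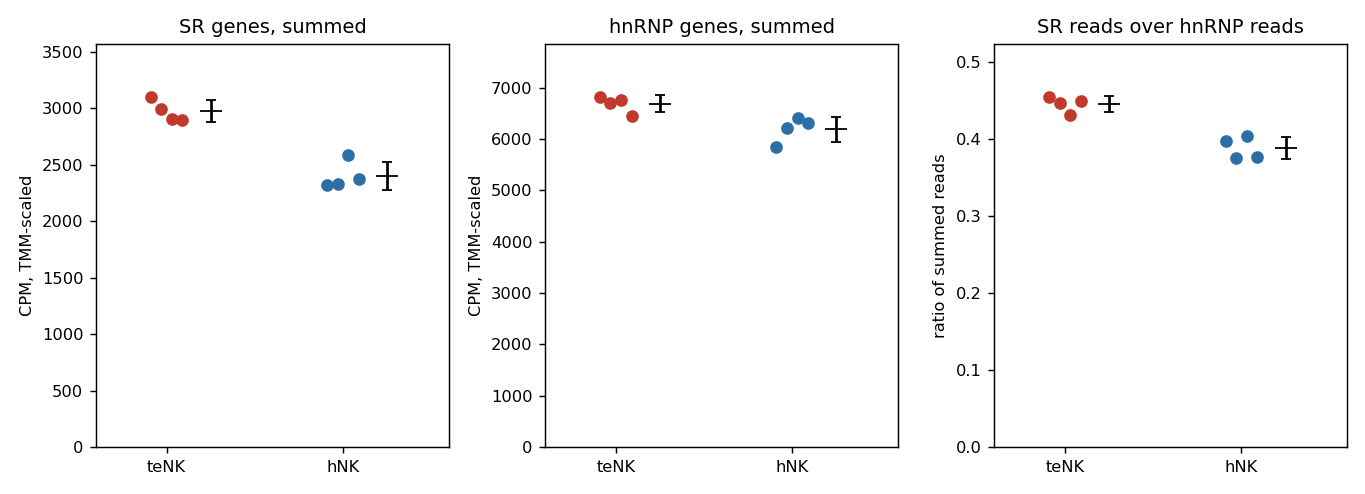
Summed CPM of the SR genes (left) and the hnRNP genes (middle) and the ratio of their summed reads (right), a point per library, with mean and SD beside the points. The ratio is 0.431 to 0.455 in teNK and 0.375 to 0.404 in hNK.

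Ratios between close relatives within the families were compared next. In 24 pairs of relatives, the log2 ratio of the read counts was computed in each library, which again needs no scaling factor. The groups did not overlap in 13 of the 24 pairs. For single genes, this held for 46.5% of all genes tested, and no share was computed for other pairs of genes. Many pairs share a gene, so the count largely restates the changes of the members above. Each of the 13 gave p = 0.0286 in an exact two-sided permutation test, the smallest p that 4 against 4 libraries allow. Adjusted over the 24 pairs it was 0.0528, so no pair passed. With this smallest p, a pair could not pass on its own, whatever its shift, so the adjustment does not bear on single pairs. *Srsf5* reads were 6.24, 5.91, 5.49 and 5.01 times those of *Srsf4* in teNK and 3.45, 3.52, 3.62 and 3.79 times in hNK. For *Srsf6* over *Srsf4* the ratios were 2.90, 2.91, 2.82 and 2.58 in teNK and 1.73, 1.94, 2.24 and 2.16 in hNK. *Srsf5* against *Srsf6* overlapped between the groups (exact permutation p = 0.0857).

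In the hnRNP A group, the ratio of *Hnrnpa2b1* to *Hnrnpa3* overlapped between the groups, with a difference of 0.02 on the log2 scale (exact permutation p = 0.771). *Hnrnpa2b1* reads were 9.30, 10.1, 8.86 and 7.35 times those of *Hnrnpa0* in teNK, against 5.92, 5.06, 5.98 and 5.77 times in hNK. *Hnrnpa2b1* reads were 3.63, 4.19, 4.23 and 3.81 times those of *Hnrnpa1* in teNK and 3.28, 3.06, 3.25 and 2.81 times in hNK. In the group that binds guanine runs, *Hnrnph1* reads were 6.43, 6.97, 5.58 and 5.75 times those of *Hnrnpf* in teNK and 4.47, 4.56, 5.24 and 4.03 times in hNK. The mean log2 ratio of *Hnrnpul2* over *Hnrnpul1* was 0.36 ± 0.07 in teNK and -0.02 ± 0.08 in hNK (SD, n = 4 each), without overlap. For *Hnrnpll* over *Hnrnpl*, the pair that acts on *Ptprc*, the mean log2 ratio was -3.06 ± 0.07 in teNK and -3.10 ± 0.12 in hNK (SD, n = 4 each, exact permutation p = 0.571).

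**Figure D4:**
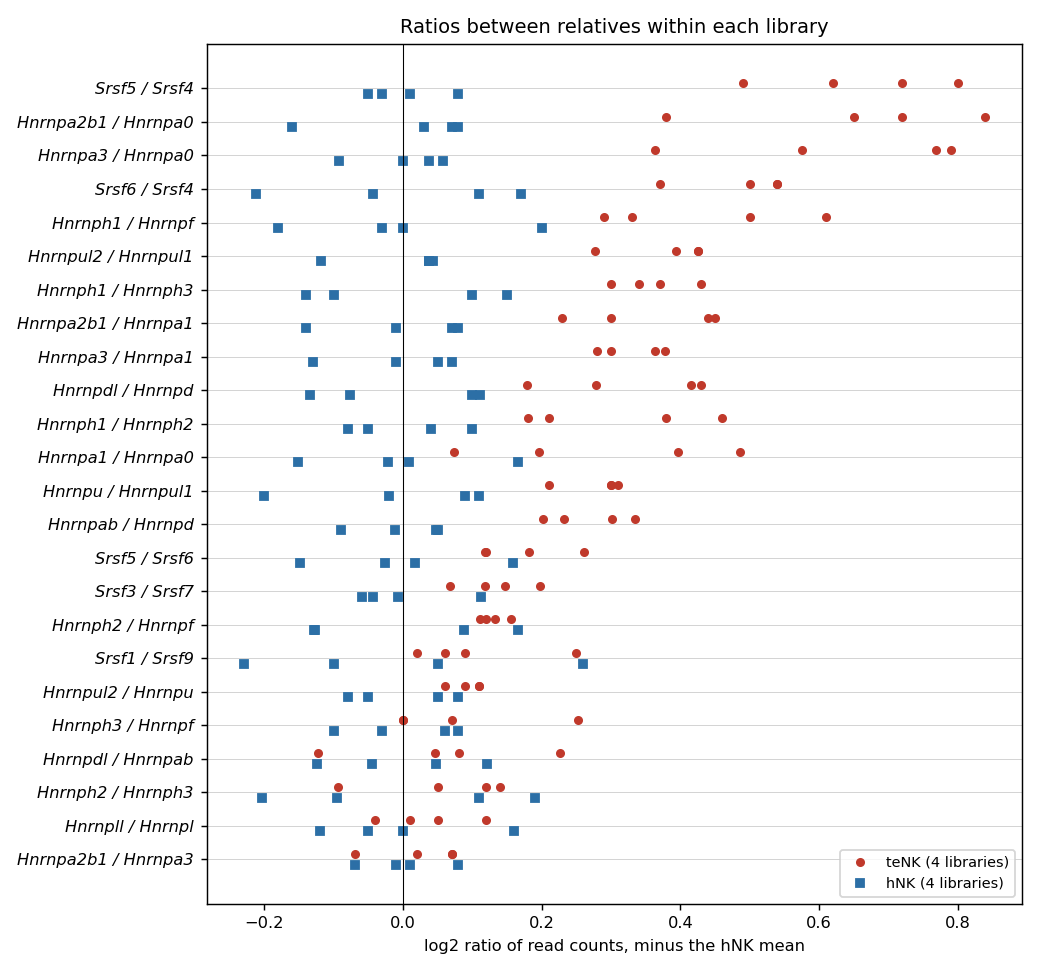
Log2 ratio of read counts between relatives in each library, minus the hNK mean, for 24 pairs, with teNK as circles above and hNK as squares below. The widest differences, 0.65 for *Srsf5* over *Srsf4* and 0.64 for *Hnrnpa2b1* over *Hnrnpa0*, stand at the top, and *Hnrnpa2b1* over *Hnrnpa3* at the bottom is near 0.

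Levels per length, in CPM per kilobase of annotated exon (RPKM), put *Hnrnpa2b1* first in both groups, at 163 ± 8.26 in teNK and 125 ± 7.60 in hNK. *Srsf5* had rank 2 in teNK, at 158 ± 12.9 RPKM, and its range overlapped that of *Hnrnpa2b1*. In hNK it had rank 3, at 100.8 ± 4.85 RPKM, and overlapped with *Srsf2* above it and *Hnrnpk* below it. *Hnrnph1* had rank 3 in teNK, at 118 ± 10.9 RPKM, and rank 5 in hNK, at 84.6 ± 4.09 RPKM. *Srsf2* measured 107 ± 2.37 RPKM in teNK and 103 ± 7.16 RPKM in hNK, and *Hnrnpk* 105 ± 3.27 RPKM in teNK and 97.0 ± 9.46 RPKM in hNK. Apart from *Srsf12*, the lowest were *Hnrnpll*, at 4.21 ± 0.14 RPKM in teNK and 3.797 ± 0.34 RPKM in hNK, and *Hnrnpr*, at 6.32 ± 0.08 RPKM in teNK and 8.30 ± 0.60 RPKM in hNK. Annotated exons include those of retained-intron and decay transcripts, 22199 bases for *Hnrnpr*, so these levels are too low where the long exons are little used.

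The annotation lists transcripts that end in decay for many of these genes. Of the 10 tested SR genes, 9 have a transcript annotated as a target of nonsense-mediated decay, as do 10 of the 20 hnRNP genes and 30.1% of 10876 tested protein-coding genes. The median number of annotated transcripts was 7.5 for the SR genes, 8.0 for the hnRNP genes and 5.0 for the protein-coding genes. More annotated transcripts give more chances of such an annotation. Such transcripts were annotated for 6 of the 12 members that rose, 2 of the 4 that fell and 11 of the 14 not called. The counts are per gene, so productive and decay transcripts were not separated, and a higher count is not a higher protein level.

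Windows of 250 bases upstream of the annotated start were searched in the RefSeq promoter table (GRCm38.p6), which held 29 of the 31 members. The GC box GGGCGG, on either strand, was present in 24 of the 29 (82.8%), 14 of them hnRNP genes and 10 SR genes, and in 35.4% of all 27025 genes of the table. The CCAAT box was present in 16 (55.2%), 13 of them hnRNP genes and 3 SR genes, and in 37.5% of all genes. The ETS-type sequence CCGGAAG was present in 6 (20.7%) and in 7.83% of all genes, the E-box CACGTG in 3 (10.3%) and 6.86%, the TATA box TATAAA in 3 (10.3%) and 14.3%, and TGACGTCA in none and 1.77%. Genes with several start sites have several windows and so more chances of a match, and CCGGAAG can overlap GGGCGG on the other strand. The 27025 genes were not limited to those tested here or matched for level. Whether the shares differ from those of genes with like levels was not tested. The 120 bases next to the start are shown for the most changed SR genes, which both rose, and the most changed hnRNP genes that fell, to set the proximal promoters side by side. Matches to the 6 motifs on either strand are in capitals.
Srsf5, chr12:80945379-80945498, plus strand: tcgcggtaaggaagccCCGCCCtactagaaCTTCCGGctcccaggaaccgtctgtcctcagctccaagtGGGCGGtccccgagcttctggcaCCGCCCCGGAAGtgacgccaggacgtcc
Srsf6, chr2:162931388-162931507, plus strand: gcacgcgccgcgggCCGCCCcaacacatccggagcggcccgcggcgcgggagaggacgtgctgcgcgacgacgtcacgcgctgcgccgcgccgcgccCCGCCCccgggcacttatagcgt
Hnrnpr, chr4:136310822-136310941, plus strand: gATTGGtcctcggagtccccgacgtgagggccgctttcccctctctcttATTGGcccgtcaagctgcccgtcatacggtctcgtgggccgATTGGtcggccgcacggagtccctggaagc
Hnrnpul1, chr7:25754760-25754879, minus strand: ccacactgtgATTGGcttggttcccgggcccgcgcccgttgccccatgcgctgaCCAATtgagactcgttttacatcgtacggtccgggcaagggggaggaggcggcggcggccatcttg
In these 120 bases, both SR genes have GC boxes and no CCAAT box, and both hnRNP genes have CCAAT boxes and no GC box. These 4 genes were picked by their change and do not stand for their families, since 14 hnRNP genes have a GC box and 3 SR genes a CCAAT box in the longer window. Family and direction of change cannot be told apart in this choice, and motifs were not counted by direction. *Hnrnph1*, which rose and was the most changed hnRNP gene, is not shown. *Hnrnpr* has a second window in the table, which is not shown. The counts do not measure binding, and these are matches of letters only.

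The other genes of the splicing pathway were taken from 7 lists. The enzymes that add and remove phosphates on SR proteins included 5 that rose and 1 that fell among 13 tested, 46.2% called against 51.9% of all genes. In the setting with library totals alone 4 rose and 3 fell. Of all 13903 genes tested, 2709 rose and 5114 fell in that setting, which is the background for its counts in the lists below as well. *Clk1*, which phosphorylates SR proteins in the nucleus, averaged 669 ± 69.3 CPM in teNK and 445 ± 14.2 CPM in hNK, a log2 fold change of 0.59 ± 0.075 (adjusted p = 6.20e-06). *Clk3* rose by 0.47 ± 0.08 and *Prpf4b*, a kinase of the spliceosome, by 0.60 ± 0.07. *Srpk1*, the kinase that prepares SR proteins for import into the nucleus, measured 141, 139, 138 and 133 CPM in teNK and 239, 197, 241 and 239 CPM in hNK. It fell by 0.73 on the log2 scale (SE 0.07, adjusted p = 1.94e-07), more than any SR or hnRNP gene. Among 5 import receptors none rose and 2 fell (40.0% called, against 51.9% of all genes), *Tnpo2* by 0.35 and *Kpnb1* by 0.29. No import receptor was higher at an unadjusted p under 0.05 (0 of 5), and DESeq2 and limma-voom called none higher either, but without hNK replicate 4 edgeR called 1 higher.

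Of 24 SR-related genes, 16 rose (66.7%, against 26.4% of all genes) and 2 fell (8.33%, against 25.6%), and their median was 0.22 on the log2 scale. Among the 5702 tested genes with at least 29.7 CPM, 34.6% rose and 24.1% fell. When library totals alone set the scale, 9 SR-related genes rose and 5 fell. *Tra2b*, an SR-like activator of exons, measured 476, 468, 442 and 423 CPM in teNK and 249, 276, 259 and 261 CPM in hNK, a log2 fold change of 0.79 ± 0.06 (adjusted p = 2.54e-08). *Tra2a*, its relative, rose by 0.76 ± 0.07, and *Acin1*, a component deposited near exon junctions, by 0.51 ± 0.07. *Scaf11* fell by 0.29 and *Scaf4*, which guards against early transcript ends, by 0.22. Among 25 relatives of the hnRNPs with other names, 4 rose and 7 fell, 44.0% called against 51.9% of all genes. Without teNK replicate 1, without teNK replicate 3 or with upper-quartile factors 2 rose, and with library totals alone 2 rose and 10 fell. *Ptbp3*, a polypyrimidine tract binder of blood cells, rose by 0.54 ± 0.09, *Sfpq*, a paraspeckle protein, by 0.37 ± 0.06 and *Raly* by 0.18 ± 0.06. The cold-inducible RNA-binding protein gene *Cirbp* fell by 0.51 (SE 0.07) and *Rbm3*, its relative, by 0.39 (SE 0.08), and *Pcbp3* fell by 0.85 (SE 0.18) from the low level of 6.18 CPM in hNK.

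Of 17 tested splicing regulators outside these families, 8 rose and 1 fell, 52.9% called against 51.9% of all genes. These were 5 and 4 with library totals alone. *Celf2*, a regulator of exon choice in activated T cells, averaged 512 ± 8.33 CPM in teNK and 382 ± 39.7 CPM in hNK, a log2 fold change of 0.43 ± 0.07 (adjusted p = 0.000137). *Mbnl3* rose by 0.58 ± 0.10 and *Rbm38* by 0.45 ± 0.08. *Rbm4* fell by 0.73 (SE 0.10), and its near copy *Rbm4b*, not called, had a log2 fold change of 0.22 (adjusted p = 0.149). How the counting divided reads between these copies is not known, so both values are uncertain. In the core spliceosome 8 of 63 genes rose (12.7%, against 26.4% of all genes) and 15 fell (23.8%, against 25.6%), and the median was -0.08 on the log2 scale. The share called was 36.5%, against 51.9% of all genes, and with library totals alone 5 rose and 33 fell. *Sf3b1*, the branch site factor, averaged 1160 ± 54.9 CPM in teNK and 796 ± 42.9 CPM in hNK, a log2 fold change of 0.54 ± 0.07 (adjusted p = 5.10e-06), while *Prpf31* fell by 0.68 (SE 0.07) and the U2 snRNP gene *Snrpa1* by 0.46 (SE 0.09). Of 15 factors of nonsense-mediated decay, 2 rose and 1 fell (*Smg9*), 3 of 15 called against 51.9% of all genes. None of them rose without hNK replicate 2, without teNK replicate 1, 2 or 3, with the replicate block, with no filter or with upper-quartile factors. Without hNK replicate 3, hNK replicate 4 or teNK replicate 4, and with DESeq2 or limma-voom, 1 rose. Without hNK replicate 1, 3 rose and 2 fell. Without teNK replicate 1 or with upper-quartile factors, 2 fell. None rose and 8 fell with library totals alone.

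**Figure D5:**
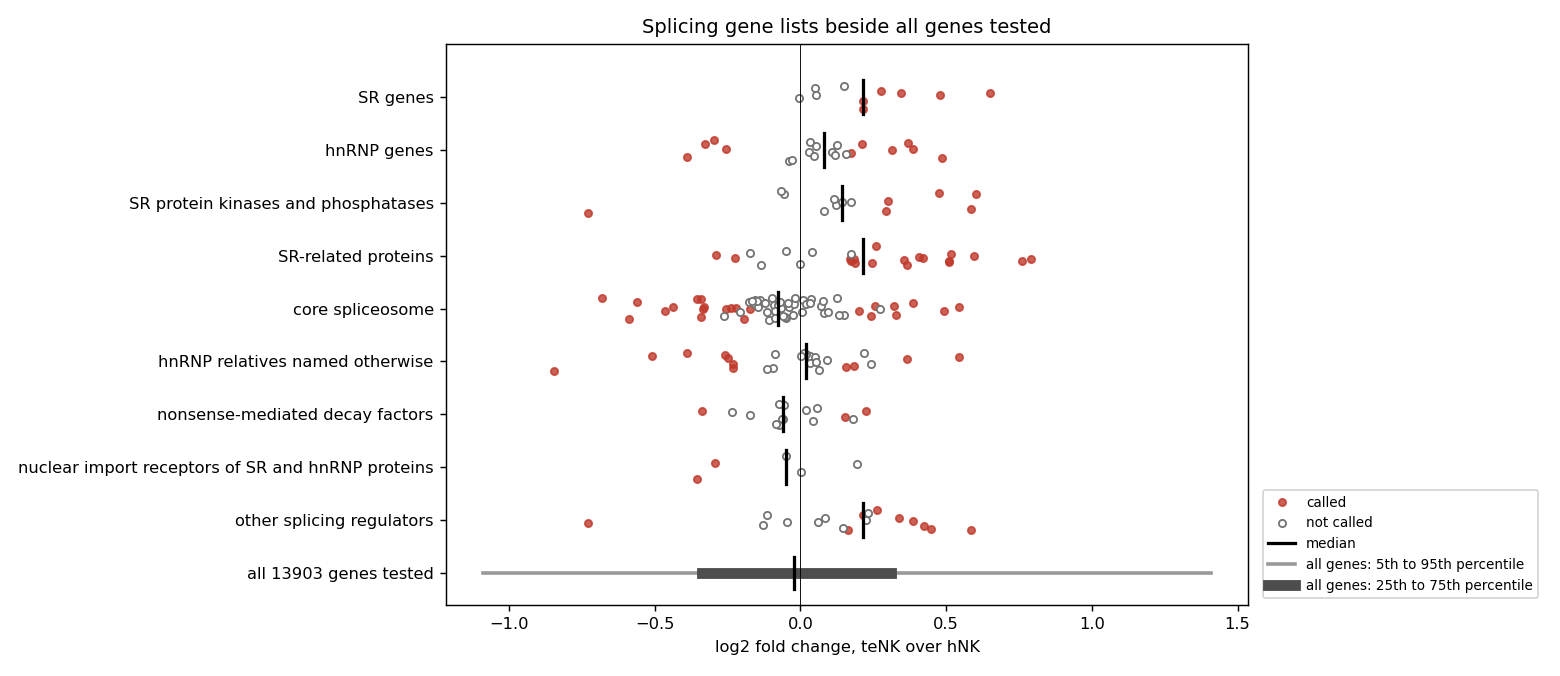
Log2 fold change (teNK over hNK) of the SR genes, the hnRNP genes and the 7 related lists, a point per tested gene, red where called and open where not, with the median as a bar. The bottom row gives the percentiles of all 13903 genes tested, whose 25th to 75th percentile runs from -0.34 to 0.31, and the medians of the SR and hnRNP genes are 0.21 and 0.08.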

How the data were processed

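Poly(A) RNA of 8 libraries (4 teNK, 4 hNK) was measured. The authors deposited whole-number read counts per Ensembl gene, not normalized. Per the submitters' processing notes, the tools were HISAT2 2.1.0, SAMtools and HTSeq, on GRCm38. The sources used here do not give their order, settings, strand option or annotation release. Labels mention technical replicate runs for the teNK libraries and none for hNK, so run layout cannot be told apart from group. Summary lines, with 34.2% to 40.5% of reads in teNK and 32.3% to 41.2% in hNK in no gene, stayed out. GENCODE M21 gave symbols, coordinates and exon lengths for 54809 identifiers.

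In edgeR 4.0.16 (R 4.3.3), genes were kept with filterByExpr, normalized by TMM and compared by the quasi-likelihood test with group as the sole term. P-values were adjusted over all 13903 genes by Benjamini-Hochberg and called under 0.05. The SE is the log2 fold change over the square root of F, and intervals are 1.96 SE either way. That is a normal quantile, so with so few libraries they are narrower than 95% intervals of the quasi-likelihood test. A floor of 3 counts was 0.190 to 0.241 CPM in teNK and 0.238 to 0.542 CPM in hNK. No pair of libraries of the same group agreed within sampling noise (chi-square per degree of freedom 3.51 to 11.3), and pairs across groups were not checked. Members and lists were chosen with earlier results of these data known. Library values are given for the 4 largest called rises and falls per family, the 3 highest levels per kilobase, the most precise member not called and members under the filter. Further members were added after their values were seen. From each list the text names up to 3 genes per direction with the smallest adjusted p. Some genes named by this rule are not reported here. The ratio test of relatives was added after seeing the data. DESeq2 1.42.0, limma 3.58.1, other scalings and filters, a replicate block and leaving out libraries were tried. The code was tested on simulated data.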

Additional observations from a re-analysis of the deposited data

Results flagged for a closer look

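In 3 of 64 sets of 4 libraries (30 genes and the summed level of each family, in each group), a single library stood apart from the other 3 by Dixon's 95% test, where chance gives about 1 in 20. *Hnrnpr* measured 143.0 CPM in teNK replicate 3, and 139.2 to 139.4 CPM in the other teNK libraries. *Hnrnpc* measured 194.5 CPM in hNK replicate 1, and 218 to 222 CPM in the other hNK libraries. *Hnrnpul1* measured 375.2 CPM in hNK replicate 2, and 324.5 to 328 CPM in the other hNK libraries. Without that library the call held for each of the 3 genes, with adjusted p (edgeR) of 0.000355 for *Hnrnpr*, 0.0256 for *Hnrnpc* and 0.00150 for *Hnrnpul1*. Over the 17 alternatives that test against no change, the adjusted p ran up to 0.00153 for *Hnrnpr*, 0.274 for *Hnrnpc* and 0.00272 for *Hnrnpul1*. Against a change of 1.2-fold (glmTreat) it was 0.0248 for *Hnrnpr*, and *Hnrnpc* and *Hnrnpul1* were not called.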

How the results depend on the processing

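Against a change of 1.2-fold (glmTreat), 5 members (*Srsf5*, *Srsf6*, *Hnrnph1*, *Hnrnpa2b1*, *Hnrnpa3*) were called higher and 1 (*Hnrnpr*) lower, beside 2391 (17.2%) higher and 2151 (15.5%) lower of all genes. With library totals alone, 7 members were called higher and 5 lower, and the genes of the related lists 25 higher and 66 lower, against 43 and 29 with TMM. Of all 13903 genes tested, 2709 were called higher and 5114 lower in that setting, against 3665 and 3557 with TMM. Leaving out 1 library at a time gave 11 to 14 members higher and 4 lower. Replicate numbers did not pair the libraries (correlations of deviations -0.107 to 0.145, and not every library matched its own number best), and with the replicate block 11 members rose and 4 fell. No called member changed sign in any of the 17 settings run per gene. Signs reversed only for members not called. With library totals alone these were *Hnrnpl* (-0.0135), *Hnrnph3* (-0.0035), *Hnrnpk* (-0.0205), *Hnrnpdl* (-0.0996), *Srsf9* (-0.0783), *Srsf2* (-0.0787), *Hnrnpf* (-0.0857), *Hnrnpa1* (-0.103) and *Hnrnpul2* (-0.0757). With upper-quartile factors they were *Hnrnpdl* (-0.0025) and *Hnrnpa1* (-0.0056). *Srsf4* reversed with DESeq2 size factors (0.0035), DESeq2 (0.0032), no filter (0) and without hNK replicate 1 (0.0371), teNK replicate 2 (0.0181) or teNK replicate 3 (0.0128), with -0.0359 as the lowest value without 1 library. *Hnrnpab* reversed without hNK replicate 4 (0.0070) or teNK replicate 2 (0.0129), with -0.0764 as the lowest such value, and *Hnrnpa1* without hNK replicate 1 (-0.0210) or teNK replicate 1 (-0.0044), with 0.0979 as the highest. Without the shallow hNK replicates 3 and 4 together, an alternative chosen after seeing the data, 12 members rose and 4 fell, and *Hnrnpab* (0.0508) and *Hnrnpu* (0.0119) reversed. The causes were not tested. The lower depth of hNK limits the precision of its values.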
